A study of Homo sapiens with 6 samples.

Results

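The 4 libraries described here came from 2 human lung adenocarcinoma lines, HCC827 and PC9, each sequenced as a gefitinib-resistant subline (HCC827-GR and PC9-GR) and as its parental line. They were chosen by their labels and are 4 of the 6 libraries of the study. All 4 carry the EGFR mutation labelled E19Del and were grown in the same serum-containing medium. The sublines were labelled gefitinib selected and had been kept for 90 days in rising drug concentrations, and the parental lines were labelled nontreated. Over all lines of the study, the half-maximal inhibitory concentration ranged between 4.288 and 12.485 µM in the resistant sublines and between 0.016 and 0.07 µM in the parental lines. Each state of each line was sequenced as 1 library, the labels do not say whether a subline is a clone, and no source states whether the drug was present at harvest. The remaining pair, H1975-OR and H1975, carries L858R/T790M, was selected with osimertinib and serves below only as an outside comparison.

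EGFR is the receptor tyrosine kinase on which lung cancers with an activating deletion in its kinase domain depend. Gefitinib occupies the ATP site of that kinase, and the signal to the RAS, RAF, MEK and ERK kinases falls when it binds. ERK signalling induces immediate-early transcription factors such as EGR1 and FOS, and also its own inhibitors, the DUSP phosphatases and the Sprouty proteins. Tumour cells that survive EGFR inhibitors have been described to lose epithelial junction proteins and to make mesenchymal filaments and extracellular matrix, a programme called the epithelial to mesenchymal transition. The comparison asked which genes were on the same side, and which on opposite sides, in both lines after the same drug selection.

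More genes were higher in both GR sublines than were lower in both. Levels are total exon reads scaled to library size by TMM (CPM), and the log2 ratio of a GR library to its own parental library was taken with 1 CPM added to both. Of 21463 genes, 9091 reached 10 CPM in at least 1 of the 2 libraries in each line. Among these, 75 genes (0.825%) were at least 2-fold higher in both GR sublines and 20 (0.22%) at least 2-fold lower in both. Another 18 genes (0.198%) were higher in HCC827-GR and lower in PC9-GR, and 15 (0.165%) were lower in HCC827-GR and higher in PC9-GR. The scatter of the log2 ratios in both lines shows these 128 genes against all others.

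**Figure D1:**
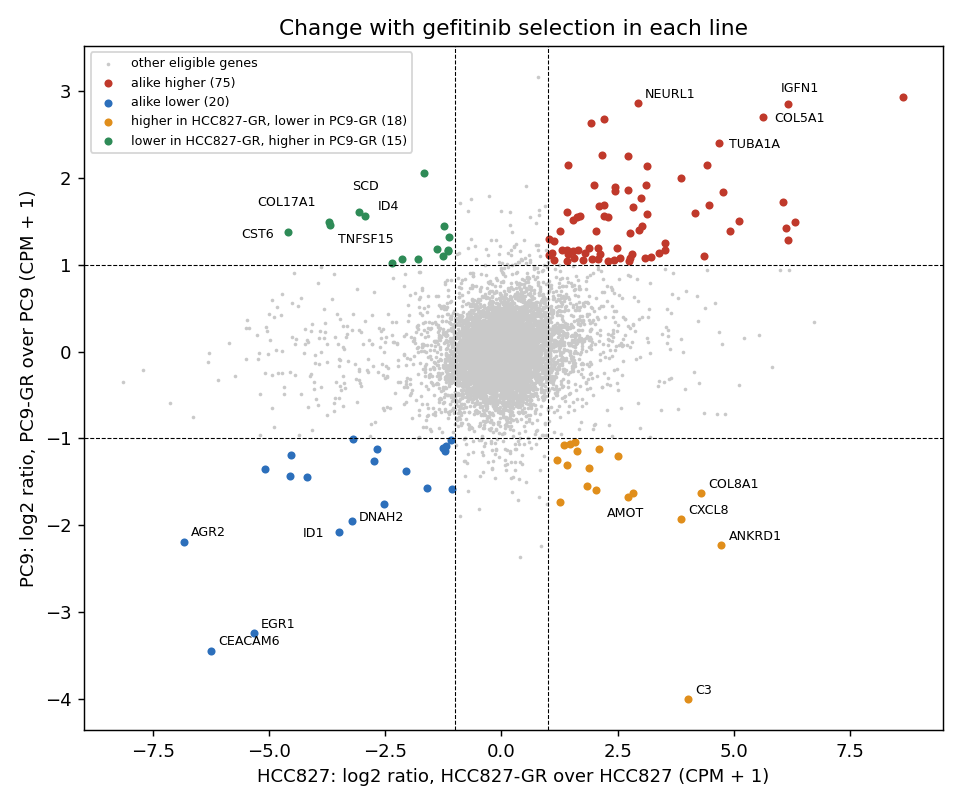
Log2 ratio of the GR subline to its parental line in HCC827 (horizontal) and PC9 (vertical) for 9091 genes, with 1 CPM added and dashed lines at 2-fold. The 75 genes higher in both sublines lie at the upper right and the 20 lower in both at the lower left, and the spread along the HCC827 axis is the wider.

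The share of each line's own list that was matched in the other line differed with direction. HCC827-GR had 761 of the 9091 genes at least 2-fold higher (8.37%) and 613 lower (6.74%) than HCC827. PC9-GR had 144 higher (1.58%) and 111 lower (1.22%) than PC9. The 75 genes higher in both made up 9.86% of the HCC827 list and 52.1% of the PC9 list, while the 20 genes lower in both made up 3.26% and 18.0%. The 18 opposite genes that were higher in HCC827-GR were 2.37% of the higher list of HCC827 and 16.2% of the lower list of PC9. The 15 in the other direction were 2.45% of the lower list of HCC827 and 10.4% of the higher list of PC9. Genes at least 2-fold lower in PC9-GR lay below 0 in HCC827 in 50.5% of cases, and those higher in PC9-GR lay above 0 in HCC827 in 77.1%. At 4-fold in both lines 10 genes were higher in both, 4 were lower in both and 2 were opposite, both of these higher in HCC827-GR. The 2-fold line passed closest to FGD3 (log2 ratio −1.001 in PC9) and PPP1R14C (1.013 in PC9) on its inner side, and to CCDC71L (0.9992 in HCC827) and SLC26A2 (0.9971 in PC9) on its outer side. Among the 128 genes, 5 alike genes (PKD1P1, DAB2, DNAJB4, TFPI2 and EIF3CL) and 2 opposite genes (TP53I3 and AC006064.6) had under 70% uniquely mapping reads, and their values are uncertain.

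Whether a gene passed a test over both lines depended on the tool. The quasi-likelihood test of edgeR, with the line as a block and Benjamini-Hochberg adjustment, was run on 13910 genes and called 0 (0%) at an adjusted p of 0.05. At an unadjusted p under 0.05 it had 584 genes. DESeq2 with the same terms fits 1 change common to both lines, so genes on opposite sides tend to cancel in it. The alike genes were chosen from the same libraries, so an overlap with its calls is built in. DESeq2 called 93 of the 13910 genes, 78 higher and 15 lower, of which 43 belonged to the 75, 8 to the 20 and 0 to the opposite genes. The remaining 42 were below 10 CPM in a line. The smallest edgeR p values belonged to such genes: CDH6, a cadherin of kidney and developing tissue, had 4395 reads in HCC827-GR and 6 in PC9-GR, against 14 in HCC827 and 0 in PC9, and MUC5B, an airway mucin, had 15 and 0 reads in HCC827-GR and PC9-GR, against 2708 and 10 in HCC827 and PC9. Both had an adjusted p of 0.877 in edgeR. The 4 libraries leave 1 residual degree of freedom, the smallest two-sided p of an exact permutation of 2 pairs is 0.5, and p-values measure only the spread between these libraries, which no source calls separate cultures. The alike and opposite genes are therefore a description of these 4 libraries, and "higher" and "lower" in what follows refer to them.

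The libraries held 29366085 (HCC827-GR), 24463011 (PC9-GR), 28140012 (HCC827) and 21222102 (PC9) exon reads, and uniquely mapping reads made up 90.8% to 91.7%. For a gene without reads the floor was 3 reads, or 0.105 to 0.138 CPM. Floors and intervals reflect the error of counting and nothing else. Mitochondrially encoded transcripts took 6.62% of reads in HCC827-GR and 6.86% in PC9-GR, against 3.32% in HCC827 and 6.47% in PC9. Without them, also in the library size, 78 genes were higher in both sublines and 22 lower in both. The 8 markers of lung epithelial cells summed to 5190 CPM in HCC827-GR and 7250 CPM in PC9-GR, against 13200 CPM in HCC827 and 8280 CPM in PC9. Both PC9 libraries held under 1 CPM of the lung adenocarcinoma markers NKX2-1 and NAPSA. The 7 leukocyte markers checked summed to 2.75 CPM in HCC827-GR and 6.39 CPM in PC9-GR, against 7.74 CPM in HCC827 and 2.07 CPM in PC9, and MS4A1, a B-cell antigen, had 0 reads in all 4. CD68, a lysosomal glycoprotein abundant in macrophages and on a wider leukocyte list, was itself higher in both sublines, at 170 CPM in HCC827-GR and 118 CPM in PC9-GR, against 77.1 CPM in HCC827 and 48.5 CPM in PC9. The highest marker of endothelial cells was PECAM1 at 13.7 CPM in PC9 and of fibroblasts COL3A1 at 2.64 CPM. In bulk libraries, fewer cells of a kind and less RNA per cell cannot be told apart.

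Several extracellular matrix genes were among the 12 genes ranked highest by the smaller of their log2 ratios in the 2 lines. COL5A1 (ENSG00000130635, chromosome 9, 134641774 to 134844843, hg38), a chain of type V collagen, had 167 CPM in HCC827-GR and 54.2 CPM in PC9-GR, against 2.37 CPM in HCC827 and 7.51 CPM in PC9. FN1, the matrix glycoprotein fibronectin, had 441 and 744 CPM in HCC827-GR and PC9-GR, against 116 and 119 CPM in HCC827 and PC9. Its log2 ratio was larger in PC9 (2.63) than in HCC827 (1.92), whereas that of COL5A1 was larger in HCC827 (5.64) than in PC9 (2.70). FBN1, the microfibril protein fibrillin, had 126 and 27.6 CPM in HCC827-GR and PC9-GR, against 4.88 and 5.48 CPM in HCC827 and PC9. SPARC, a collagen-binding matricellular protein, had 132 and 52.95 CPM in HCC827-GR and PC9-GR, against 8.19 and 12.6 CPM in HCC827 and PC9. The ranking used these same ratios, so wide gaps between a subline and its parental line are built into the choice of genes.

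The collagen receptor MRC2, which takes matrix fragments into the cell, was at 124 CPM in HCC827-GR and 26.5 CPM in PC9-GR, against 26.2 CPM in HCC827 and 3.32 CPM in PC9. SPOCK1, a secreted proteoglycan, was at 110 and 132 CPM in HCC827-GR and PC9-GR, against 15.8 and 26.9 CPM in HCC827 and PC9. Its log2 ratios of 2.73 and 2.25 were close to each other, and so were those of NEURL1, a ubiquitin ligase, at 2.94 in HCC827 and 2.85 in PC9. NEURL1 had 16.5 CPM in HCC827-GR and 34.8 CPM in PC9-GR, against 1.29 CPM in HCC827 and 3.96 CPM in PC9. IGFN1, a protein with immunoglobulin-like and fibronectin domains, had 103 and 145 CPM in HCC827-GR and PC9-GR, against 0.453 CPM (13 reads) in HCC827 and 19.3 CPM in PC9. GPNMB, a transmembrane glycoprotein of lysosomes and melanosomes, had 44.0 and 31.1 CPM in HCC827-GR and PC9-GR, against 4.15 and 6.31 CPM in HCC827 and PC9. For MRC2 the PC9-GR level was close to that of HCC827.

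TUBA1A, an alpha tubulin, and SLAMF7, a cell-surface receptor of lymphocytes, differed alike within each line but sat at different levels in the lines. TUBA1A had 865 CPM in HCC827-GR against 32.9 CPM in HCC827, and 16.2 CPM in PC9-GR against 2.26 CPM in PC9. SLAMF7 had 280 CPM in HCC827-GR against 61.5 CPM in HCC827, and 13.5 CPM in PC9-GR against 2.03 CPM in PC9. For both genes the PC9-GR level lay below that of parental HCC827, so the groups overlapped. The fitted log2 fold changes over the 2 lines were 3.82 ± 0.59 for TUBA1A, 2.44 ± 0.28 for SLAMF7, 2.55 ± 0.28 for SPOCK1 and 2.29 ± 0.32 for FN1 (edgeR, SE, n = 2 lines). Each SE was computed back from the fitted fold change and the F value of the test. It is therefore not the SE of the log2 ratios of the 2 lines. COL5A1 had 4.47 ± 1.00 in the same fit. Each of these 5 had an adjusted p of 0.918 in edgeR.

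**Figure D2:**
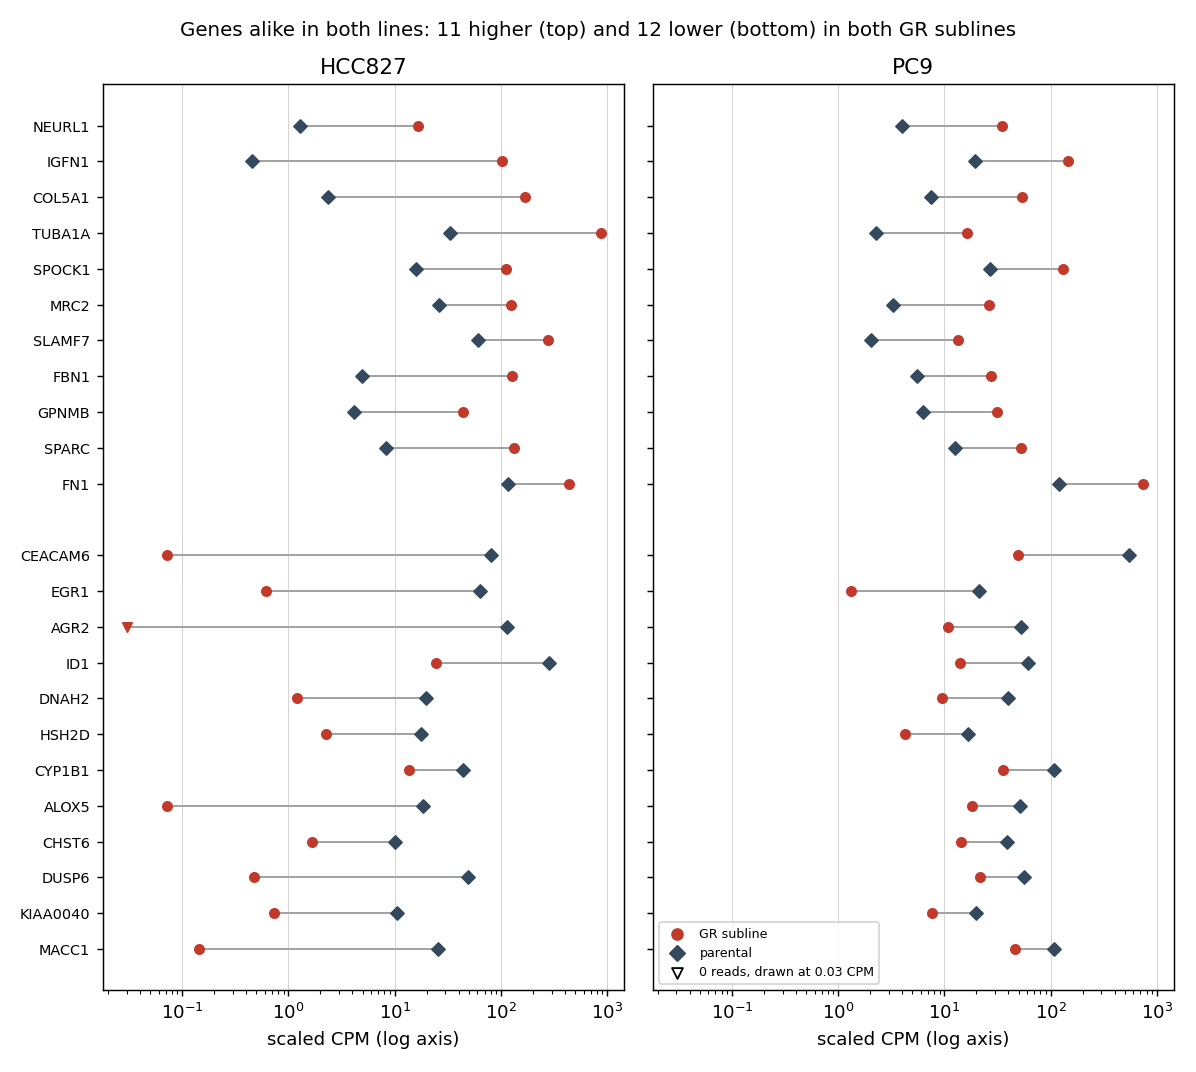
Scaled CPM on a log axis in the GR subline (circle) and the parental line (diamond) of HCC827 (left) and PC9 (right), 1 library each, for 11 genes higher and 12 genes lower in both sublines, ordered by the smaller of their log2 ratios. The grey line between the points is longer in HCC827 than in PC9 for most genes, and the triangle marks AGR2, which had 0 reads in HCC827-GR.

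Of the 24 listed mesenchymal markers 14 reached 10 CPM in both lines, and 8 of these 14 were higher in both sublines and 0 lower in both. Over all 9091 genes, 0.825% were higher in both and 0.22% lower in both. The median log2 ratio of the 14 was 3.23 in HCC827 and 1.06 in PC9, where the median of all 9091 genes was −0.01 in each line. VIM, the intermediate filament vimentin, had 848 CPM in HCC827-GR and 99.5 CPM in PC9-GR, against 37.4 CPM in HCC827 and 30.3 CPM in PC9. SNAI2, a transcription factor that represses epithelial genes, had 27.3 and 18.0 CPM in HCC827-GR and PC9-GR, against 3.17 and 8.01 CPM in HCC827 and PC9. TGFBI, a matrix protein induced by TGF-beta, had 5542 and 795 CPM in the sublines, against 1133 and 384 CPM in HCC827 and PC9. COL6A1, COL6A2 and THBS1 were higher in HCC827-GR with log2 ratios of 1.57, 2.89 and 5.11, and had −0.67, −0.09 and −0.39 in PC9. ZEB1, another repressor of epithelial genes, stayed below 10 CPM in PC9, with 73 reads in PC9-GR and 22 in PC9. SNAI1, also on the list, stayed below 10 CPM in both lines and was lower in both sublines. It had 2.10 CPM in HCC827-GR and 1.33 CPM in PC9-GR, against 5.86 CPM in HCC827 and 2.12 CPM in PC9. The list was drawn up with earlier results of these libraries known and is not independent evidence of its direction. SNAI1, SNAI2, TGFBI, COL6A1, COL6A2 and THBS1 here, and GRHL2, FOSL1, NQO1 and LAMA3 below, were chosen after their values were seen.

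Epithelial markers did not follow the mesenchymal ones in both lines. Of 24 epithelial markers at 10 CPM in both lines, 22 were at least 2-fold lower in HCC827-GR and 1 in PC9-GR. Over all 9091 genes the shares were 6.74% and 1.22%. The medians of the 24 were −3.45 and −0.09. SPINT2 and MARVELD3 on this list had 59.4% and 61.6% uniquely mapping reads, and their values are uncertain. ELF3, an epithelial transcription factor, was the 1 gene lower in both, at 192 CPM in HCC827-GR and 61.5 CPM in PC9-GR, against 448 CPM in HCC827 and 137 CPM in PC9. CDH1, the junction protein E-cadherin, had 21.4 CPM in HCC827-GR and 144 CPM in PC9-GR, against 447 CPM in HCC827 and 203 CPM in PC9. EPCAM, an epithelial adhesion molecule, had 10.2 CPM in HCC827-GR and 702 CPM in PC9-GR, against 414 CPM in HCC827 and 708 CPM in PC9. In PC9 the log2 ratios of EPCAM, KRT18, a keratin of simple epithelia, and GRHL2, an epithelial transcription factor, were −0.01, −0.02 and 0.10. Those of the keratins KRT8 and KRT19 were −0.61 and −0.42. Of the 24 markers, 16 lay below 0 in both lines, 0 above 0 in both and 8 on different sides. Over all 9091 genes the shares were 29.2%, 27.4% and 43.4%. The difference between the lines was not tested, because a line-specific term leaves no residual degrees of freedom.

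CEACAM6, EGR1 and AGR2 ranked highest by the smaller of their absolute log2 ratios among the genes lower in both sublines. CEACAM6 (ENSG00000086548, chromosome 19, 41750977 to 41772208, hg38), a membrane-anchored adhesion molecule of epithelia, had 0.0725 CPM in HCC827-GR and 49.5 CPM in PC9-GR, against 80.7 CPM in HCC827 and 547 CPM in PC9. HCC827-GR held 2 reads, which gives a 1110-fold lower level with a 95% counting interval of 308 to 9200, and the PC9-GR level was 11.1-fold lower. AGR2, a chaperone of mucus-secreting cells, had 0 reads in HCC827-GR against 113 CPM in HCC827, at least 1040-fold lower against the floor of 3 reads. It had 10.8 CPM in PC9-GR against 52.7 CPM in PC9. ALOX5, the lipoxygenase that starts leukotriene synthesis, had 2 reads in HCC827-GR (0.0725 CPM) and 18.3 CPM in PC9-GR, against 18.4 CPM in HCC827 and 51.5 CPM in PC9. DNAH2, a dynein heavy chain of cilia, had 1.20 and 9.40 CPM in HCC827-GR and PC9-GR, against 19.5 and 39.3 CPM in HCC827 and PC9. For ALOX5 the PC9-GR level was close to that of HCC827.

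HSH2D, an SH2 adaptor of blood cells, and CHST6, a sulfotransferase of keratan sulfate, stood at −2.54 and −2.04 on the log2 scale in HCC827 and at −1.75 and −1.38 in PC9. MACC1, a regulator of MET transcription, had 0.145 CPM in HCC827-GR and 46.6 CPM in PC9-GR, against 25.4 CPM in HCC827 and 108 CPM in PC9. KIAA0040 had 0.725 and 7.67 CPM in HCC827-GR and PC9-GR, against 10.5 and 19.8 CPM in HCC827 and PC9. The groups overlapped for MACC1 and for CHST6, whose PC9-GR level of 14.3 CPM exceeded the 10.0 CPM of HCC827.

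EGR1 (ENSG00000120738, chromosome 5, 138465490 to 138469315, hg38) had 0.616 CPM in HCC827-GR and 1.33 CPM in PC9-GR, against 64.0 CPM in HCC827 and 20.9 CPM in PC9. Both sublines were near the bottom of the range of detection and both parental lines well above it. EGR1 was 104-fold lower in HCC827-GR (95% counting interval 64.7 to 179) and 15.8-fold lower in PC9-GR (11.1 to 23.2). DUSP6, the phosphatase that removes phosphate from ERK, had 0.471 CPM in HCC827-GR and 21.4 CPM in PC9-GR, against 49.1 CPM in HCC827 and 56.0 CPM in PC9. ID1, an inhibitor of basic helix-loop-helix transcription factors, had 24.4 and 13.9 CPM in HCC827-GR and PC9-GR, against 284 and 61.8 CPM in HCC827 and PC9. The fitted log2 fold change was −5.29 ± 0.87 for EGR1, −2.85 ± 0.45 for ID1 and −3.81 ± 1.63 for DUSP6 (edgeR, SE computed from the F value as above, n = 2 lines, adjusted p = 0.918 for each). DESeq2 called all 3.

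The promoters of EGR1, ID1 and CEACAM6, the genes lower in both sublines by the largest margins with a RefSeq promoter that holds a motif, are shown with COL5A1 from the genes higher in both. Each is the 250 bases before the RefSeq transcription start (GRCh38.p14), 5′ to 3′ on the gene's strand, with matched motifs in capitals. Their positions, all on the plus strand, are chr5:138465229-138465478, chr20:31605039-31605288, chr19:41755280-41755529 and chr9:134641553-134641802.
EGR1: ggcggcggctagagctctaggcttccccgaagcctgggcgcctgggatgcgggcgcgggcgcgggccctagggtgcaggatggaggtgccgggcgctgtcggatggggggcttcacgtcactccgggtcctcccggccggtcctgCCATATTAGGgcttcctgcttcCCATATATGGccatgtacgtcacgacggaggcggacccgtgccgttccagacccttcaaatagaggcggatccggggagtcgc
ID1: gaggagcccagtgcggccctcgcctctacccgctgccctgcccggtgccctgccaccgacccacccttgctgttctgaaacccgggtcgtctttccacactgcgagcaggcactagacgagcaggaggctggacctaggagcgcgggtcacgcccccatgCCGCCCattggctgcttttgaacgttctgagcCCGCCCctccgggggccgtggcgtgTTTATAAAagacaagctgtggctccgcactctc
CEACAM6: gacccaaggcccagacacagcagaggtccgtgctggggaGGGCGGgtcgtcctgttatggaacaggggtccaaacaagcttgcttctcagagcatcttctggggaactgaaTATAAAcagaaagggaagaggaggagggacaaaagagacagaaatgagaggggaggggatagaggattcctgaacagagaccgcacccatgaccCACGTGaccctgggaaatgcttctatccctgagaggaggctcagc
COL5A1: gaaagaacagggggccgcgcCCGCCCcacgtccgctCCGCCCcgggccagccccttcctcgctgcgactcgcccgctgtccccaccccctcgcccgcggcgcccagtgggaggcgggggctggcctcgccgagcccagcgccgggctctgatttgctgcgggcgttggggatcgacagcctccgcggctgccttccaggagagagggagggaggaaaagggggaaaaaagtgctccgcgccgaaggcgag
Both strands were searched for 11 motifs, and the shares given are of the 7371 promoters of the same length matched to the 9091 genes. The AP-1 motif TGACTCA, bound by FOS and JUN proteins, was present in 2.29% of them. The TEAD motif GGAATG, bound by the partners of YAP, was present in 9.12%. The ZEB motif CACCTG was present in 1107 of the 7371 and the E-box CACGTG in 9.69%. The TATA motif TATAAA was present in 4.54% and the SP1 motif GGGCGG in 70.2%. The ETS motif CCGGAAGT was present in 8.6%, the CRE motif TGACGTCA in 3.24% and the EGR motif GCGTGGGCG in 1.26%. The CArG box was present in 0.977% and the interferon-stimulated response element in 2.17%. CEACAM6 is shown from a RefSeq start that lies inside its gene model in the files. The capitals in EGR1 are 2 CArG boxes, the motif bound by serum response factor, which begin 105 and 83 bases before the start. ID1 held overlapping TATA matches 33 and 31 bases before the start and 2 SP1 matches at 90 and 58 bases. CEACAM6 held an SP1, a TATA and an E-box match at 211, 139 and 45 bases, and COL5A1 held 2 SP1 matches at 230 and 214 bases. A match describes letters in this window, and no binding was measured.

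Of 17 listed genes of ERK output at 10 CPM in both lines, 13 lay below 0 in both lines, as did 2651 of all 9091 genes (29.2%). The 13 include JUNB, ETV4 and CCND1, which had 0%, 55.6% and 68.0% uniquely mapping reads and whose values are uncertain. At least 2-fold lower were 9 of the 17 in HCC827-GR and 3 in PC9-GR, 2 were at least 2-fold lower in both (EGR1 and DUSP6) and 0 higher in both. Over all 9091 genes, 6.74% were at least 2-fold lower in HCC827-GR, 1.22% in PC9-GR and 0.22% in both. The median log2 ratio of the 17 was −1.0 in HCC827 and −0.42 in PC9. FOS and SPRY4 did not reach 10 CPM in every line. FOS had 14 reads in HCC827-GR and 33 in PC9-GR, against 216 in HCC827 and 171 in PC9, and SPRY4 had 4 and 259 reads in HCC827-GR and PC9-GR, against 201 and 428 in HCC827 and PC9. FOSL1, a FOS-related factor of AP-1, was the member above 0 in both lines, with 177 and 253 CPM in HCC827-GR and PC9-GR, against 125 and 188 CPM in HCC827 and PC9.

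The receptor that gefitinib inhibits was far lower in HCC827-GR than in HCC827, and close to the parental level in PC9-GR. EGFR had 140 CPM in HCC827-GR and 820 CPM in PC9-GR, against 2280 CPM in HCC827 and 900 CPM in PC9, with log2 ratios of −4.02 and −0.13. Its partners ERBB2 and ERBB3 were also below 0 in both lines, ERBB2 with −0.53 in HCC827 and −0.34 in PC9, and ERBB3 with −3.02 and −0.39. ERBB3 had 54.6% uniquely mapping reads, and its values are uncertain. None of the 3 reached 2-fold in both lines. AXL, a receptor tyrosine kinase studied in resistance to EGFR inhibitors, had 374 CPM in HCC827-GR and 320 CPM in PC9-GR, against 4.11 CPM in HCC827 and 166 CPM in PC9. Its log2 ratio of 0.94 in PC9 kept it just short of the 2-fold rule. FGFR1, a receptor for fibroblast growth factors, met the rule with 80.5 and 52.7 CPM in HCC827-GR and PC9-GR, against 1.71 and 19.5 CPM in HCC827 and PC9. MET, the receptor for HGF, lay at −1.08 (log2) in HCC827 and −0.16 in PC9, and HGF itself had 1 read in HCC827-GR and 189 in HCC827 and was at 0 reads in both PC9 libraries. CD274, the checkpoint ligand PD-L1, had 28.3 and 16.3 CPM in HCC827-GR and PC9-GR, against 19.7 and 8.80 CPM in HCC827 and PC9.

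The aryl hydrocarbon receptor pathway had a member on each alike list. AHRR, the repressor of the receptor, had 19.4 CPM in HCC827-GR and 11.2 CPM in PC9-GR, against 2.75 CPM in HCC827 and 2.40 CPM in PC9. CYP1B1, a cytochrome P450 that the receptor induces, had 13.7 and 35.6 CPM in HCC827-GR and PC9-GR, against 43.8 and 107 CPM in HCC827 and PC9. The log2 ratios of CYP1B1 were alike in size in the 2 lines, −1.61 in HCC827 and −1.56 in PC9. NQO1, a quinone reductase that the receptor also induces, had −4.03 and −0.35. All 6 pathway genes at 10 CPM lay on the same side of 0 in both lines, 3 above and 3 below, as did 56.6% of all 9091 genes.

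Of 22 mitotic genes, which drive chromosome segregation, 19 lay below 0 in both lines, beside 29.2% of all 9091 genes. The medians of the 22 were −0.58 in HCC827 and −0.29 in PC9. At least 2-fold lower were 4 of the 22 in HCC827-GR and 0 in PC9-GR, beside 6.74% and 1.22% of all 9091 genes. Of 23 DNA replication genes at 10 CPM, 18 lay below 0 in both, with medians of −0.44 and −0.20. For comparison, 5 of 14 reference genes lay below 0 in both, with medians of −0.35 in HCC827 and 0.07 in PC9. BUB1, a kinase of the spindle checkpoint, had 46.2 and 80.3 CPM in HCC827-GR and PC9-GR, against 137 and 99.1 CPM in HCC827 and PC9.

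C3, ANKRD1 and CXCL8 ranked highest by the smaller of their log2 ratios among the genes higher in HCC827-GR and lower in PC9-GR. C3 (ENSG00000125730, chromosome 19, 6677704 to 6730562, hg38), the central protein of the complement cascade, had 32.7 CPM in HCC827-GR against 1.08 CPM in HCC827, and 19.7 CPM in PC9-GR against 329 CPM in PC9. The log2 ratios were 4.02 and −3.997, and the levels of the 2 sublines lay closer together than those of the 2 parental lines. ANKRD1, a nuclear protein of muscle that YAP induces, had 151 CPM in HCC827-GR against 4.71 CPM in HCC827, and 1.49 CPM in PC9-GR against 10.6 CPM in PC9. CXCL8, a chemokine that attracts neutrophils, had 156 CPM in HCC827-GR against 9.76 CPM in HCC827, and 6.03 CPM in PC9-GR against 25.8 CPM in PC9. For these 2 genes the sublines lay further apart than the parental lines. AMOT, a YAP-binding scaffold, had 32.7 CPM in HCC827-GR against 4.08 CPM in HCC827, and 6.47 CPM in PC9-GR against 22.8 CPM in PC9.

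Matrix genes were among the opposite genes too. COL8A1, a short-chain collagen, had 43.5 CPM in HCC827-GR against 1.25 CPM in HCC827, and 29.2 CPM in PC9-GR against 92.7 CPM in PC9. EDIL3, an integrin-binding matrix protein, had 265 CPM in HCC827-GR against 63.5 CPM in HCC827, and 7.35 CPM in PC9-GR against 24.2 CPM in PC9. ADAMTS9, a secreted metalloprotease, and LFNG, a glycosyltransferase that modifies Notch receptors, followed the same pattern, at 1.84 and 2.82 (log2) in HCC827 and −1.55 and −1.63 in PC9. HBEGF, a ligand of EGFR, had 52.5 CPM in HCC827-GR against 8.33 CPM in HCC827, and 53.7 CPM in PC9-GR against 125 CPM in PC9, so that the sublines ended at similar levels. Of 16 listed YAP/TEAD targets at 10 CPM in both lines, 12 were at least 2-fold higher in HCC827-GR and 0 in PC9-GR. Over all 9091 genes the shares were 8.37% and 1.58%, so the count in PC9-GR was near that of all genes. The medians of the 16 were 1.53 and −0.08, and ANKRD1 was the opposite member.

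The genes that were lower in HCC827-GR and higher in PC9-GR included the lipid enzymes SCD, FADS2 and MSMO1. SCD (ENSG00000099194, chromosome 10, 100347124 to 100364834, hg38), the desaturase that makes monounsaturated fatty acids, had 113 CPM in HCC827-GR against 952 CPM in HCC827, and 32.6 CPM in PC9-GR against 10.0 CPM in PC9. FADS2, a desaturase of polyunsaturated fatty acids, had 16.1 CPM in HCC827-GR against 58.0 CPM in HCC827, and 40.0 CPM in PC9-GR against 18.6 CPM in PC9. MSMO1, an enzyme of sterol synthesis, had 32.3 CPM in HCC827-GR against 77.2 CPM in HCC827, and 41.1 CPM in PC9-GR against 14.5 CPM in PC9. Over all 9091 genes, 43.4% lay on different sides of 0 in the 2 lines. Of 18 cholesterol synthesis genes 15 lay on different sides of 0 in the 2 lines, with medians of −0.79 in HCC827 and 0.37 in PC9, and 1 (MSMO1) reached 2-fold in both. Of 11 fatty acid synthesis genes, 6 lay on different sides, near the share of all genes, and 2 (SCD and FADS2) reached 2-fold in both. Over all 9091 genes, 0.165% were at least 2-fold lower in HCC827-GR and higher in PC9-GR.

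The 15 basement membrane and integrin genes at 10 CPM in both lines had medians of 0.58 in HCC827 and 0.11 in PC9. LAMB3, a laminin chain of the epithelial basement membrane, was opposite and had 92.0 CPM in HCC827-GR against 204 CPM in HCC827, and 862 CPM in PC9-GR against 387 CPM in PC9. LAMA3, another laminin chain, was above 0 in both lines with log2 ratios of 0.58 and 0.84. COL17A1, the collagen of hemidesmosomes, had 4.67 CPM in HCC827-GR against 73.1 CPM in HCC827, and 132 CPM in PC9-GR against 46.6 CPM in PC9. CST6, a secreted inhibitor of cysteine proteases, and TNFSF15, a cytokine of the TNF family, lay at −4.60 and −3.68 (log2) in HCC827 and 1.37 and 1.46 in PC9. The transcription regulators ID4 and BHLHE40 had −2.94 and −1.38 in HCC827 and 1.56 and 1.18 in PC9.

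**Figure D3:**
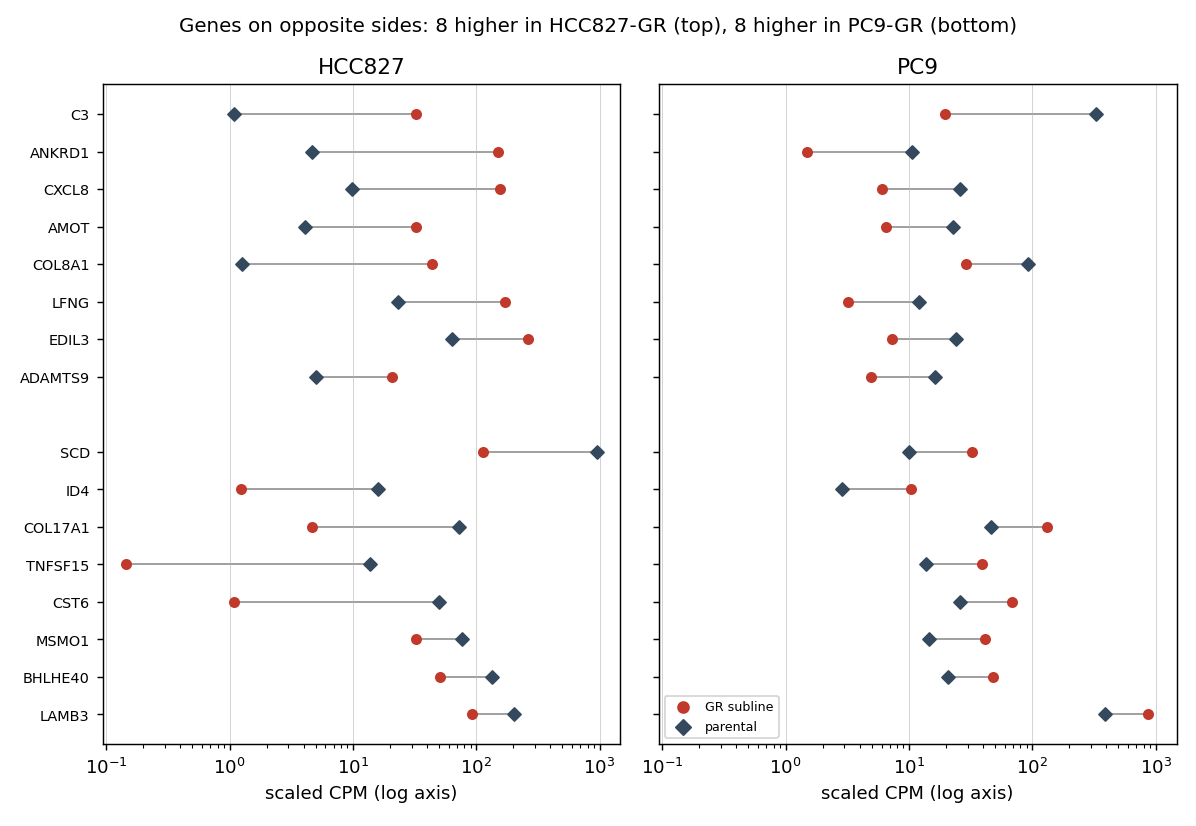
Scaled CPM on a log axis in the GR subline (circle) and the parental line (diamond) of HCC827 (left) and PC9 (right), 1 library each, for 8 opposite genes in each direction. In the upper set the circle lies right of the diamond in HCC827 and left of it in PC9, and in the lower set the order is turned round in both panels.

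The plot of list medians places the mesenchymal and complement lists among those above 0 in both lines, complement at 1.06 in HCC827 and 0.36 in PC9 (7 genes). The epithelial, ERK, mitotic, DNA replication and mucin lists were among those below 0 in both, the mucins at −3.38 and −0.49 (6 genes). The cholesterol, type I interferon and S100 lists lay below 0 in HCC827 and above 0 in PC9, and the YAP/TEAD, NF-kB and TGF-beta lists were the reverse. Of 30 listed type I interferon genes only 5 reached 10 CPM in both lines, with medians of −0.58 and 0.42. Of these 5, 3 lay on different sides of 0, 1 above 0 in both lines and 1 below 0 in both. Over all 9091 genes the shares were 43.4%, 27.4% and 29.2%. ISG15, an interferon-induced ubiquitin-like modifier, lay at −0.58 (log2) in HCC827 and 1.21 in PC9, and was the 1 gene of the 5 at least 2-fold higher in PC9-GR. Among 13 genes of antigen presentation and checkpoints the medians were 0.03 and 0.59, with HLA-B at −0.26 and 1.79. The 24 ribosomal protein genes had medians of −0.15 in HCC827 and 0.08 in PC9.

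**Figure D4:**
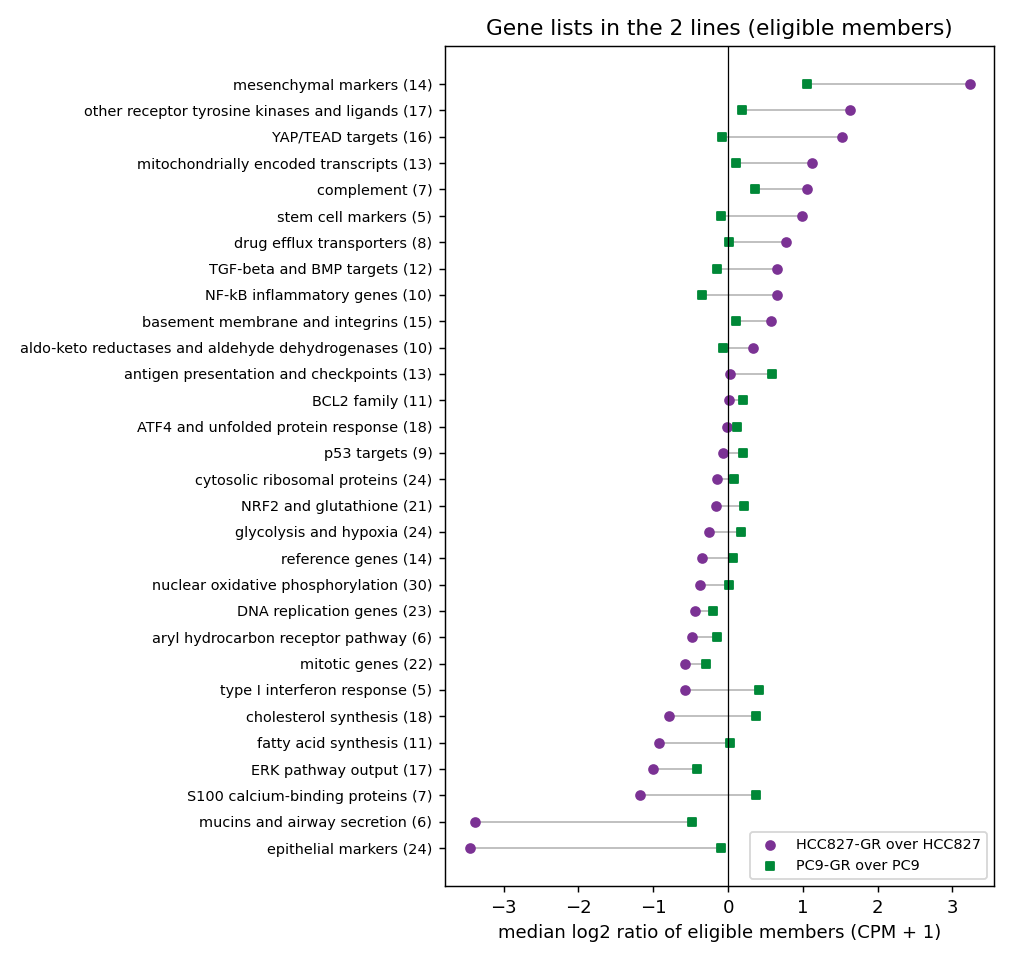
Median log2 ratio of GR subline to parental line over the members of each gene list that reached 10 CPM in both lines (their number in brackets), for HCC827 (circle) and PC9 (square), for lists with at least 5 such members. The mesenchymal list is at 3.23 in HCC827 and 1.06 in PC9, and the epithelial list at −3.45 and −0.09.

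The size of the difference was larger in HCC827 than in PC9 for most shared genes. The log2 ratio was larger in size in HCC827 for 65 of the 75 genes higher in both and for 19 of the 20 lower in both, and for 70% of all 9091 genes. The median log2 ratio of the 75 was 2.45 in HCC827 and 1.39 in PC9, and of the 20 it was −2.97 and −1.40. Being on the same side did not bring the 2 lines to the same level. The median gap between the lines, as an absolute log2 ratio, was 1.22 between the 2 sublines and 1.22 between the 2 parental lines for the 75, and the sublines were the nearer pair for 38 of them. For the 20 genes lower in both the gap was 2.02 between the sublines and 1.01 between the parental lines, and the sublines were nearer for 4. For all 9091 genes it was 0.595 between the sublines and 0.515 between the parental lines.

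Intron reads of the same libraries, which the choice of genes did not use, mostly lay on the same sides. Genes with at least 10 intron reads in a library of each line numbered 8635. Of these, 535 (6.2%) were at least 2-fold higher and 947 (11%) lower in HCC827-GR than in HCC827, and 233 (2.7%) were higher and 353 (4.09%) lower in PC9-GR than in PC9. Of the 75 genes higher in both, 63 had such reads, 54 lay on the higher side in both lines and 30 were at least 2-fold higher in both. Of the 20 lower in both, 15 had such reads, all 15 lay on the lower side in both lines and 9 were at least 2-fold lower in both. The opposite genes kept their sides in 17 of 18 cases and 11 of 11. Over all 8635 genes the sides of intron and exon reads matched in both lines for 50.1%. By log2 ratio of intron reads, COL5A1 had 3.29 in HCC827 and 1.09 in PC9, MRC2 had −0.12 and 1.73, and SPOCK1 had 1.24 and −0.19. Reads counted as intronic come from the same RNA samples and are no replicate. They include reads of mitochondrially encoded genes, also in the intron totals used for scaling, and are not unspliced RNA alone.

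In the H1975 pair, whose drug, EGFR mutation and line cannot be told apart, the shared genes lay on both sides. Its levels were scaled by TMM over all 6 libraries, and those of HCC827 and PC9 over their own 4. Of 8551 genes at 10 CPM in a library of each of the 3 lines, 58 (0.678%) were at least 2-fold higher and 217 (2.54%) lower in H1975-OR than in H1975. Of the 75 genes higher in both gefitinib sublines, 52 could be read there, and 6 were higher (11.5%) and 9 lower (17.3%). Of the 20 lower in both, 13 could be read, 0 were higher and 4 were lower. AHRR and C1S were among the 6 genes at least 2-fold higher in all 3 lines: AHRR had 43.8 CPM in H1975-OR against 19.7 CPM in H1975, and C1S, a protease of the complement cascade, had 181 CPM against 86.0 CPM. EGR1 had 3.28 CPM in H1975-OR against 11.3 CPM in H1975. GPNMB was on the other side, with 0.591 CPM in H1975-OR against 10.9 CPM in H1975.

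Chromosome 18 had the highest share of opposite genes. It held 134 of the 9091 genes, and 5 of them (3.73%) were opposite, all higher in HCC827-GR and lower in PC9-GR. They were MALT1, a scaffold and protease of NF-kB signalling, NEDD4L, a ubiquitin ligase, GALNT1, an enzyme of mucin-type glycosylation, FHOD3, a formin, and EPG5, an autophagy protein, named here after their values were seen. Their log2 ratios in PC9 were between −1.33 (MALT1) and −1.03 (EPG5), and the median of all 134 genes of the chromosome was −0.83 in PC9 and 0.08 in HCC827. In HCC827 the 5 genes had log2 ratios of 1.20 (GALNT1) to 1.89 (MALT1). No gene of chromosome 18 was higher in both or lower in both. Chromosome 7 held 434 of the 9091 genes and 4 of the 20 genes lower in both. Its median log2 ratio was −0.43 in HCC827 and −0.01 in PC9. Of the 75 genes higher in both, 10 lay on chromosome 1, with 968 of the 9091 genes, and 9 on chromosome 6, with 462. The medians were 0.08 in HCC827 and 0.07 in PC9 for chromosome 1, and 0.44 and 0.15 for chromosome 6. Over all 9091 genes, 0.825% were higher in both and 0.22% lower in both. The part of chromosome-wide differences in these genes was not tested.

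**Figure D5:**
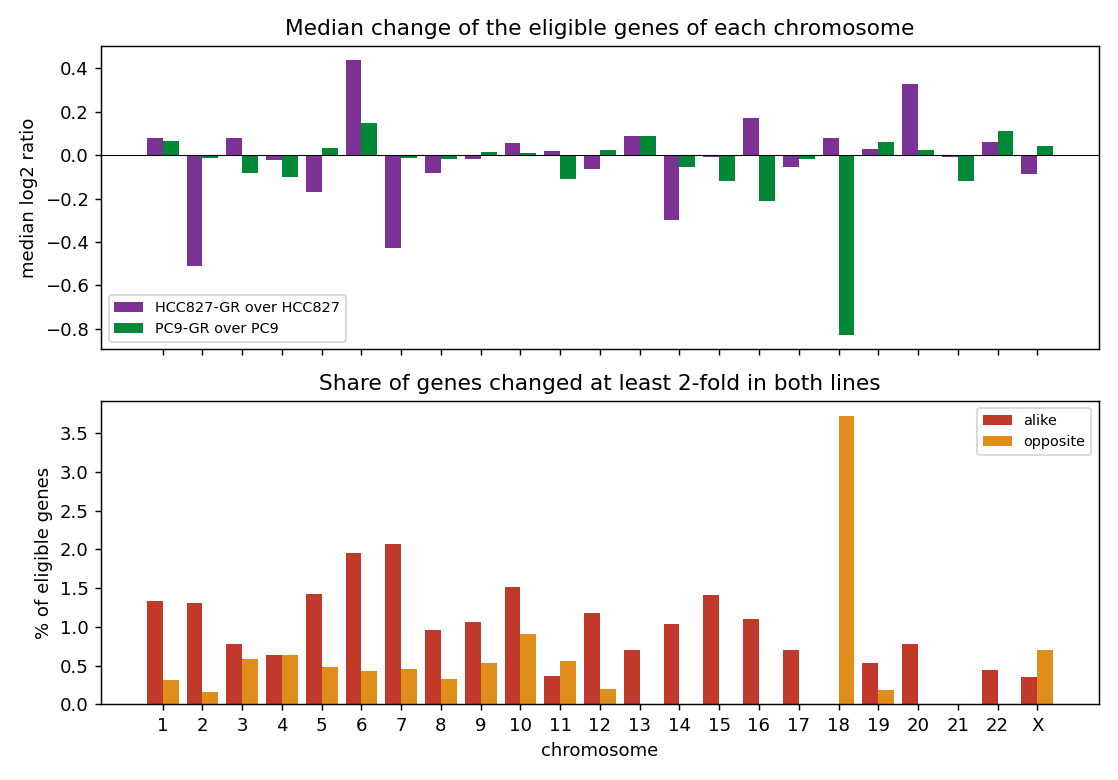
Median log2 ratio of GR subline to parental line over the genes of each chromosome that reached 10 CPM in both lines (top; HCC827 and PC9 side by side), and the percentage of those genes that were at least 2-fold alike or opposite in both lines (bottom). Chromosome 18 has the lowest median in PC9 (−0.83) and the highest share of opposite genes (3.73%).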

How the data were processed

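RNA was sequenced from 1 library per line and state after stranded poly(A) library preparation, per the labels' protocols. The authors deposited, per the file headers, whole-number counts of total and uniquely mapping exon reads and of intron reads per gene, and TPM computed from exon reads. Trimmomatic, Bowtie2 and the hg38 build are listed in the submitters' processing notes. Neither the software that counted reads, nor its annotation, nor its use of strand is stated in these sources, so overlapping or antisense genes may share reads.

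Total exon counts were scaled by TMM (edgeR 4.0.16, R 4.3.3) to CPM, and 1 CPM was added before log2 ratios within each line. Genes with 10 CPM in 1 library of each line were compared at 2-fold. The test was edgeR's quasi-likelihood test on 4 libraries with the line as a block, since each subline derives from the parental line of its name, after filterByExpr (minimum count 10, minimum total 15), with Benjamini-Hochberg adjustment and a threshold of 0.05. DESeq2 1.42.0 and limma 3.58.1 (voom) were alternatives. Counting intervals are exact 95% intervals. The edgeR test was also run on simulated data of 13683 genes. It recovered 6% of genes changed 2-fold, 51% at 4-fold and 75.3% at 8-fold, with 3 false calls. Both lines were given the same fold there, and the spread depended on a gene's level alone. In the real libraries the folds often differed between the lines, so these shares do not carry over to them.

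Named genes were the 12 alike in each direction and the 8 opposite in each direction with the largest smaller log2 ratio of the 2 lines and at least 70% unique reads, up to 4 members of each of 39 gene lists, fixed receptors and markers, the 3 smallest edgeR p values and the genes nearest the 2-fold limit. The members, the lists and the tests were chosen with earlier results of these data known. Promoters are from RefSeq (GRCh38.p14). Shares of promoters with a motif among the alike and opposite genes are not given, because under 80% of those genes matched a promoter. A few genes that the naming rule selects are not reported here.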

Additional observations from a re-analysis of the deposited data

Results flagged for a closer look

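The 33 opposite genes lay at least 2-fold on different sides of their parental line in HCC827 and PC9, and 32 of them are given here. The values in brackets are the log2 ratio in HCC827 minus that in PC9. The difference was not tested, because a line-specific term leaves no residual degrees of freedom.

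Higher in HCC827-GR and lower in PC9-GR were C3 (8.01), ANKRD1 (6.96), COL8A1 (5.93), CXCL8 (5.80), LFNG (4.45) and AMOT (4.41). The next were HBEGF (3.72), EDIL3 (3.64), ADAMTS9 (3.38), MALT1 (3.23), PLAT (3.22) and ABCA1 (2.99). The smallest differences in this direction were those of ROR1 (2.78), NEDD4L (2.73), EPG5 (2.62), FGF13 (2.55), GALNT1 (2.44) and FHOD3 (2.42).

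Lower in HCC827-GR and higher in PC9-GR were CST6 (−5.97), COL17A1 (−5.19), TNFSF15 (−5.13), SCD (−4.67), ID4 (−4.50) and TP53I3 (−3.73). The others were PPP1R14C (−3.36), FADS2 (−2.85), MSMO1 (−2.67), BHLHE40 (−2.56), UBE2L6 (−2.44), AC006064.6 (−2.36), ASNS (−2.30) and LAMB3 (−2.29). TP53I3 and AC006064.6 had under 70% uniquely mapping reads.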

How the results depend on the processing

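The counts of genes higher in both, lower in both, higher in HCC827-GR and lower in PC9-GR, and the reverse, in that order, were 146, 43, 39 and 47 with a minimum of 1 CPM, and 17, 5, 7 and 3 with a minimum of 50 CPM. They were 227, 131, 84 and 75 at 1.5-fold and 10, 4, 2 and 0 at 4-fold. With 5 CPM added, 49 genes were higher in both and 9 were lower in HCC827-GR and higher in PC9-GR. Other scalings, unique reads, TPM, 0.1 CPM added, protein-coding genes and leaving out mitochondrially encoded genes kept each count within 1.5 times. With plain library sizes the median of all genes was −0.13 in HCC827. Of the 40 alike and opposite genes named by rank, 31 kept their class with TPM and 11 with a minimum of 50 CPM, the rest falling below the minimum, and 38 with 5 CPM added, where ID4 and KIAA0040 had a smaller log2 ratio of 0.97. The aryl hydrocarbon receptor list had a median in HCC827 of −1.15 with TPM and, changing sign, 0.12 with unique reads. The antigen presentation list, at 0.03 in HCC827, was at −0.08 with plain library sizes and −0.12 with unique reads. The cause was not tested.

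DESeq2 called 93 genes, and edgeR without the replicate block, limma-voom and the other edgeR settings called 0. At an unadjusted p under 0.05, edgeR without the pairing by line had 92 genes, and limma-voom with the line as a block had 844. Leaving out a line leaves 1 library per state and no test. Depth limits genes near the floor of 3 reads, where ratios are bounds or have wide intervals.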
